A study of Drosophila melanogaster with 53 samples.

Results

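The antimicrobial peptide genes of *Drosophila* encode small secreted peptides that kill bacteria and fungi. Their transcripts were followed here in S2 cells whose labels name no immune challenge, with and without 1 h of 20-hydroxyecdysone (20E). This compound is the steroid hormone of insect moulting. The members are the 10 genes named Dpt, DptB, AttA, AttB, CecA1, CecA2, Drs, Mtk, Def and Dro in the deposited gene table of 15598 genes, and their 12 transcripts among 28704. They are a named set of peptide genes, selected with earlier results of these data known and with no threshold on their values. All 10 are listed with an FPKM (a count of fragments divided by transcript length and by library size) in both conditions.

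The cells are Schneider line 2 (S2, modENCODE stock), a line from *Drosophila* embryos with features of blood cells. Poly(A) RNA was sequenced from cells kept for 1 h with 0.3 µM 20E dissolved in DMSO or with the same amount of DMSO alone, without double-stranded RNA in either group. The labels list 2 libraries per condition, but the deposited tables hold 1 column per condition, with a lower and an upper bound for each gene. Each value below is therefore the authors' pooled value with the authors' lower and upper bound in brackets, whose confidence level is not stated. The tables give no replicate values, so no SD, no n and no test between conditions stand beside them.

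In flies, these genes are switched on mainly in the fat body and in blood cells when microbial products are sensed. The Imd pathway ends in the NF-κB factor Relish and drives above all diptericins, attacins, cecropins and drosocin. The Toll pathway ends in Dif and Dorsal and drives drosomycin, and metchnikowin answers to both. Ecdysone is known to raise the capacity of fly blood-cell lines to express such peptides when they are then challenged.

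CecA1 and CecA2 encode the same cecropin, an amphipathic peptide that breaks bacterial membranes, and they lie next to each other, yet their levels in these cells were far apart. Their coding sequences are shown because the longest stretch that the copies share lies mostly within them. The sequences are those of the RefSeq Release 6 genome, read by transcript identifier from the BDGP6 annotation, without the stop codon. That of CecA1 runs on the plus strand from chr3R:30210948-30211197 and that of CecA2 from chr3R:30212238-30212484, each over 2 exons. Both are 189 bases long, and the capitals mark the 10 positions at which they differ.
CecA1: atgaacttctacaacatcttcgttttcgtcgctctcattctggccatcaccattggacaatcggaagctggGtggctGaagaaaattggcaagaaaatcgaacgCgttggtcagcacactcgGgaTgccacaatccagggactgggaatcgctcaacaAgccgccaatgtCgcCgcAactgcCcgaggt
CecA2: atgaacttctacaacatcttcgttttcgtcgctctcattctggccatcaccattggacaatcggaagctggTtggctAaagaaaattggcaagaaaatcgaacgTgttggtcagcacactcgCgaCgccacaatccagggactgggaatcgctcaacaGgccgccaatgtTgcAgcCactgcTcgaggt

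None of the 10 differences alters the encoded peptide, which has 63 residues in both genes. The longest run of bases that both coding sequences share is 71, and that shared by both whole transcripts is 75. Of the 290 stretches of 50 bases in the CecA1 transcript, 26 (8.97%) also occur in CecA2, and none in a transcript of another gene. Of the 306 stretches in CecA2, 26 (8.50%) are shared. How the authors' counting dealt with fragments that fit both copies is not given in the sources used here, so the level of the weaker copy is uncertain.

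CecA1 (FBgn0000276) was the most abundant of the peptide transcripts. It was listed at 42.5 FPKM in DMSO (29.1 to 55.9) and at 31.4 FPKM in 20E (20.7 to 42.1). CecA2 (FBgn0000277) was listed at 0.389 FPKM in DMSO (0 to 0.925) and at 0.215 FPKM in 20E (0 to 0.565). The bounds of the copies did not overlap in either condition. The lower bound of CecA1 was 31.5 times the upper bound of CecA2 in DMSO and 36.7 times in 20E, and since the lower bounds of CecA2 were 0 no upper limit of the ratio follows. CecA1 was above 82.4% of all genes in DMSO and above 77.5% in 20E, and CecA2 above 47.2% and 44.6%.

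The sequences ahead of both genes are shown because binding sites for the NF-κB factors and for GATA factors, the latter being present in blood cells and fat body, are known to lie there. Shown are the 200 bases before each transcript start on the plus strand of Release 6, chr3R:30210674-30210873 for CecA1 and chr3R:30211956-30212155 for CecA2. Capitals mark matches on either strand to the κB consensus and to the letters GATAA.
CecA1: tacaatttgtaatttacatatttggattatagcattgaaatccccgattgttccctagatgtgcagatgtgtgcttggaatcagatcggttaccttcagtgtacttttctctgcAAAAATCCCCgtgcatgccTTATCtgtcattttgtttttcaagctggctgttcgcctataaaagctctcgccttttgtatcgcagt
CecA2: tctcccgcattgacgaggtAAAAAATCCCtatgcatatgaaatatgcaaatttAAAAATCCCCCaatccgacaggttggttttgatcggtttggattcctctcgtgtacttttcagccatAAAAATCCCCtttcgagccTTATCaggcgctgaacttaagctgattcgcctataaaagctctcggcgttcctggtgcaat

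CecA1 had 1 κB match, which begins 86 bases before the start, and 1 GATAA match that begins 67 bases before it. CecA2 had 4 κB matches, some overlapping, and 1 GATAA match. Its κB match nearest to the start begins at 80 bases and its GATAA match at 61 bases. The κB and GATAA matches thus begin 19 bases apart in both genes, and TATAAA begins 30 bases before the start in both. These matches describe the letters in the window and are not evidence of binding.

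The same search covered all 10 genes. A κB match was found before 9 of them, all but Drs, whereas 7.63% of 24166 annotated genes of every kind had a κB match in the 200 bases before their outermost start. GATAA was found on either strand before 8 of the 10 genes, all but Def and Dro, and before 40.7% of all genes. TATAAA was found on either strand before 8 of the 10, all but DptB and Def, and before 35.6% of all genes. No κB match in the 10 windows overlapped a GATAA or TATAAA match. The genes with the highest and the lowest DMSO level of the 10, CecA1 and Def, both had a κB match.

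The remaining genes of the cecropin cluster were also expressed unevenly. On the deposited map, CecA1 to CecC span 6064 bases of 3R. CecB, a further cecropin, was listed at 6.49 FPKM in DMSO (3.02 to 9.97) and 3.70 FPKM in 20E (1.12 to 6.27), and CecC at 0.526 FPKM (0 to 1.42) and 0.272 FPKM (0 to 0.679). CecA1 was 6.54 times as high as CecB in DMSO and 8.51 times in 20E, with bounds apart in both. Coding sequences differ more between these copies than between CecA1 and CecA2, with 80.4% identity of CecA1 to CecB and 86.8% to CecC, and no stretch of 50 bases of CecB or CecC occurs in another gene's transcript. Anp, the andropin gene of the male reproductive tract, begins 926 bases before CecA1, was named here with its values known, and was listed at 15.9 FPKM in DMSO (7.37 to 24.4) and 13.3 FPKM in 20E (5.46 to 21.2). Of the remaining sequences of the cluster, Cec-Psi1 and Cec2 lie between CecA1 and CecB and were listed at 0 in both conditions.

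**Figure D1:**
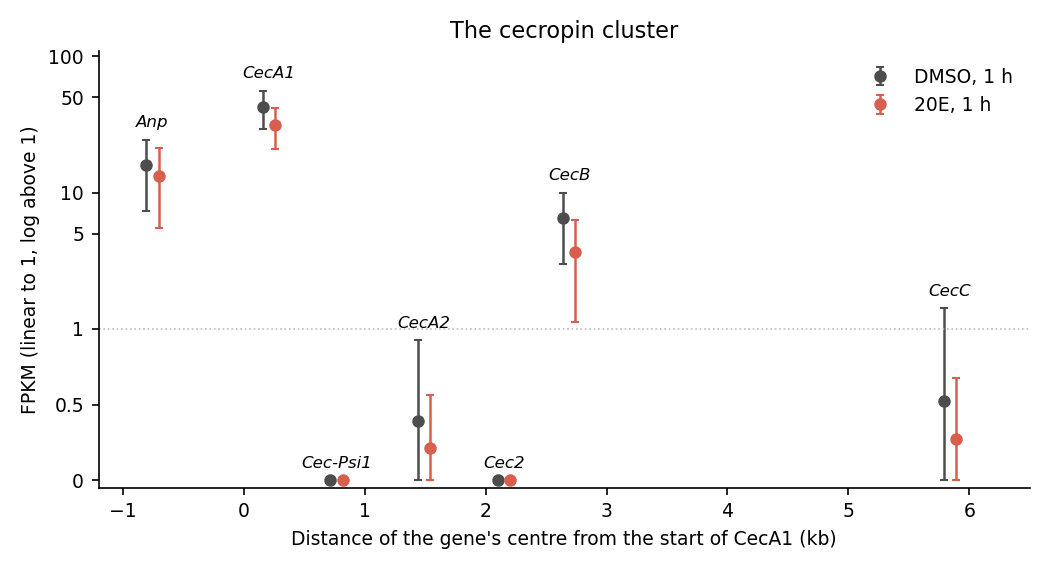
FPKM (vertical axis, linear up to 1 and log above) of the 7 entries listed at the cecropin cluster against the distance of each entry's centre from the start of CecA1 in kb. Points are the authors' pooled values for DMSO (grey) and 20E (red), set slightly apart, and bars the authors' bounds. CecA1 at 42.5 and 31.4 FPKM stands above CecA2 at 0.389 and 0.215 FPKM on the same short stretch.

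Mtk and Drs came next in level among the 10 genes. Mtk (FBgn0014865, BDGP6 2R:15408846-15409113) encodes metchnikowin, a proline-rich peptide active against fungi and Gram-positive bacteria. It was listed at 8.43 FPKM in DMSO (1.71 to 15.2) and at 4.51 FPKM in 20E (0 to 10.2). Drs (FBgn0010381, BDGP6 3L:3369556-3369942) encodes the antifungal peptide drosomycin. It was listed at 3.71 FPKM in DMSO (1.00 to 6.42) and at 5.03 FPKM in 20E (1.81 to 8.25). Mtk was listed above Drs in DMSO and below it in 20E, with overlapping bounds each time, so their order is not settled. CecA1 was 5.04 times as high as Mtk in DMSO, and its bounds lay above those of Mtk in both conditions.

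The Mtk transcript has 268 bases and is the shortest of the members, which makes its FPKM coarse. The lowest non-zero value of any gene with 1 transcript within 10% of that length was 0.394 FPKM in DMSO (16 genes with a value above 0) and 0.242 FPKM in 20E (18 genes). For the 387 bases of Drs the corresponding values were 0.0372 and 0.0258 FPKM. Mtk thus stood at 21.4 times the lowest listed value of its length class in DMSO and at 18.7 times in 20E, and Drs at 99.7 and 195 times. Within 20% of the length of Mtk, the lowest values were 0.118 FPKM in DMSO and 0.0726 FPKM in 20E. The multiples of Mtk therefore depend on how wide the length class is. The deposited locus of Mtk is shared with CG30472, CG34188 and CG43729, each listed at 0 or, for CG43729, at most at 0.106 FPKM, and its exon has no base in common with another gene in BDGP6.

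Of the attacins, glycine-rich peptides against Gram-negative bacteria, AttB was the only member listed above 1 FPKM, and in DMSO only. AttB (FBgn0041581, BDGP6 2R:14749223-14750165) was listed at 1.16 FPKM in DMSO (0.338 to 1.97) and at 0.655 FPKM in 20E (0.0565 to 1.25). Of its 2 transcripts, FBtr0300942 was listed at 1.16 FPKM in DMSO and FBtr0087438 at 0.000607 FPKM. AttA (FBgn0012042), its neighbour, was listed at 0.194 FPKM in DMSO (0 to 0.515) and 0.145 FPKM in 20E (0 to 0.407). The bounds of AttB and AttA overlapped in both conditions. The coding sequences of AttA and AttB are 93.7% identical over 663 aligned positions and their longest shared run is 92 bases. Of the stretches of 50 bases in AttA, 8.91% also occur in AttB, and a fragment that lies wholly within a shared stretch fits both genes. Among attacins outside the list, AttC was listed at 0.0172 FPKM in DMSO and 0 in 20E, and AttD at 1.65 FPKM (0.587 to 2.71) and 0.999 FPKM (0.181 to 1.82).

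The diptericins, drosocin and defensin were listed below 1 FPKM in both conditions. Dpt (FBgn0004240, now named DptA), the classical readout of the Imd pathway, was listed at 0.164 FPKM in DMSO (0 to 0.548) and 0.163 FPKM in 20E (0 to 0.553). DptB (FBgn0034407), the second diptericin, was listed at 0.388 FPKM in DMSO (0 to 1.05) and 0.507 FPKM in 20E (0 to 1.29). Dro (FBgn0010388), which encodes the proline-rich drosocin, was listed at 0.306 FPKM in DMSO (0 to 0.763) and 0.516 FPKM in 20E (0 to 1.45), all of it on FBtr0087436. Every lower bound of these genes was 0, so that neither a level above 0 nor an order among them was shown.

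Def (FBgn0010385), whose product defensin acts against Gram-positive bacteria, had a value and bounds of 0 in DMSO, and at 0.126 FPKM in 20E (0 to 0.674). In DMSO, 28.7% of all genes were listed at 0, and in 20E 27.6% were. The lowest non-zero values at the lengths of the 10 members were 1.27 to 1.98 times as high in DMSO as in 20E (median 1.51). Whether this bears on the 0 of Def in DMSO was not tested. The deposited locus of Def is shared with CG2292 (4.63 and 4.79 FPKM in DMSO and 20E) and with magu (1.38 and 1.12 FPKM), although its exon has no base in common with another gene in BDGP6. For Def the lowest values of its length class were 0.0372 FPKM in DMSO and 0.0258 FPKM in 20E, both below its 0.126 FPKM in 20E. DptB shares 48 exon bases in BDGP6 with CG43109 on the opposite strand, which was listed at 0 in DMSO and 0.242 FPKM in 20E. Whether the counting used strand is not given in the sources used here, so reads of DptB and CG43109 in that stretch cannot be told apart.

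**Figure D2:**
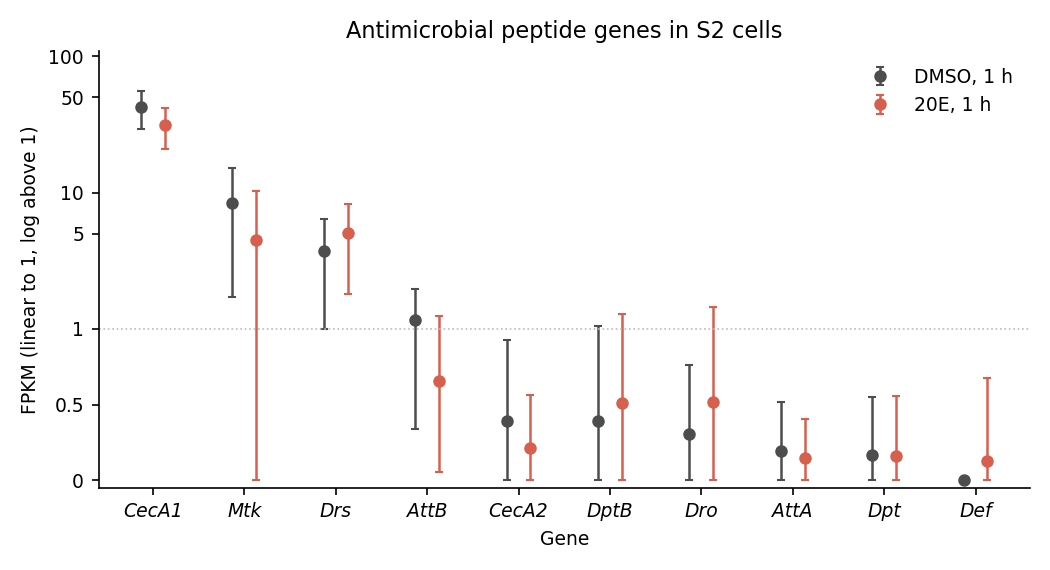
FPKM (vertical axis, linear up to 1 and log above) of the 10 antimicrobial peptide genes, ordered by their DMSO level. Points are the authors' pooled values in DMSO (grey) and 20E (red) and bars the authors' bounds, which overlap between conditions for 9 genes and touch at 0 for Def, whose DMSO bounds are both 0.

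Over the 10 genes, the FPKM values add up to 57.2 in DMSO and 43.3 in 20E. CecA1 alone made up 74.2% of that sum in DMSO and 72.6% in 20E, and CecA1, Mtk, Drs and AttB together 97.5% and 96.1%. In DMSO, 4 of the 10 genes were listed at 1 FPKM or more, and in 20E 3 of the 10 were, against 48.8% of all genes in each condition. Their median was 0.389 FPKM in DMSO and 0.512 FPKM in 20E, beside 0.752 and 0.732 FPKM over all genes. By arm, 7 of the genes lie on 2R, 2 on 3R and 1 on 3L, and Dro, AttA and AttB lie within 4209 bases of each other on the deposited map, as Dpt and DptB do within 2403.

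After 1 h of 20E, none of the 10 genes was more than 2-fold higher by the ratio of FPKM + 1, against 0.295% of all genes (46 of 15598), and none was under 0.5 of its DMSO level, against 0.0321% (5 genes). At these background shares a list of 10 genes would seldom hold such a gene, so the counts of 0 say little about the members as a group. Moreover, with 1 FPKM added, a gene listed below 1 FPKM in DMSO cannot come under 0.5 even if it is lost entirely. For Dpt, DptB, AttA, CecA2, Def and Dro the lower limit was therefore out of reach. Bounds that lie wholly above those in DMSO were found for 0.430% of all genes (67) and wholly below for 0.0769% (12), and for none of the 10 genes. No tool that gives a p-value was run.

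The direction of the listed values was mixed. CecA1, CecA2, AttA, AttB, Mtk and Dpt were listed lower in 20E, Dpt by less than 0.001 FPKM, and DptB, Drs, Def and Dro higher. The median change over the 10 genes was -0.03 on the log2(FPKM + 1) scale, beside 0.00 over all genes. It was -0.41 without a pseudocount, over the 9 genes above 0 in both conditions, and -0.42 on the log2(FPKM + 1) scale over the 3 genes with a mean of at least 1 FPKM. Listed lower in 20E were 60.0% of the 10 genes, beside 37.7% of all genes. Since many genes are listed at 0 in both conditions, the share was also taken over expressed genes, where it was 53.9% of the 5876 genes with a mean above 0 and under 10 FPKM and 49.1% of the 7617 genes with a mean of at least 1 FPKM.

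The lowest ratio was that of Mtk, which was listed in 20E at 0.535 times its DMSO value (-0.78 on the log2(FPKM + 1) scale). CecA1, the best covered of the genes, was listed at 0.740 times its DMSO value (-0.42 on that scale). The lower bound of CecA1 in DMSO, 29.1 FPKM, lies below its upper bound in 20E, 42.1 FPKM, so the difference was within the authors' bounds. AttB was listed at 0.566 times and CecA2 at 0.552 times their DMSO values, the latter from values that include 0 in their bounds. Drs was listed at 1.36 times its DMSO value (0.36 on the log2(FPKM + 1) scale), the largest of the positive changes on that scale. Dro was listed at 1.69 times and DptB at 1.31 times their DMSO values, with lower bounds of 0 throughout.

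By family, the listed values leaned the same way in some families and were split in others. The 4 cecropin genes were all lower in 20E (log2 changes of FPKM + 1 between -0.67 and -0.19). So were the 4 attacin genes (between -0.41 and -0.02). Of these genes, CecA2, CecC, AttA and AttC had lower bounds of 0 in both conditions, and AttC only went from 0.0172 FPKM to 0. Among all genes with a mean above 0 and under 10 FPKM, 53.9% were listed lower in 20E. The diptericins were split, with Dpt lower by less than 0.001 FPKM and DptB higher, and so were the drosomycin family genes, with Drs, dro2 and dro5 higher and dro6 lower in 20E. In each of these cecropin, attacin, diptericin and drosomycin family genes the bounds of the conditions overlapped or touched at 0. CecA1 and CecA2, and AttA and AttB, share stretches of sequence, so these genes do not count as independent observations.

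**Figure D3:**
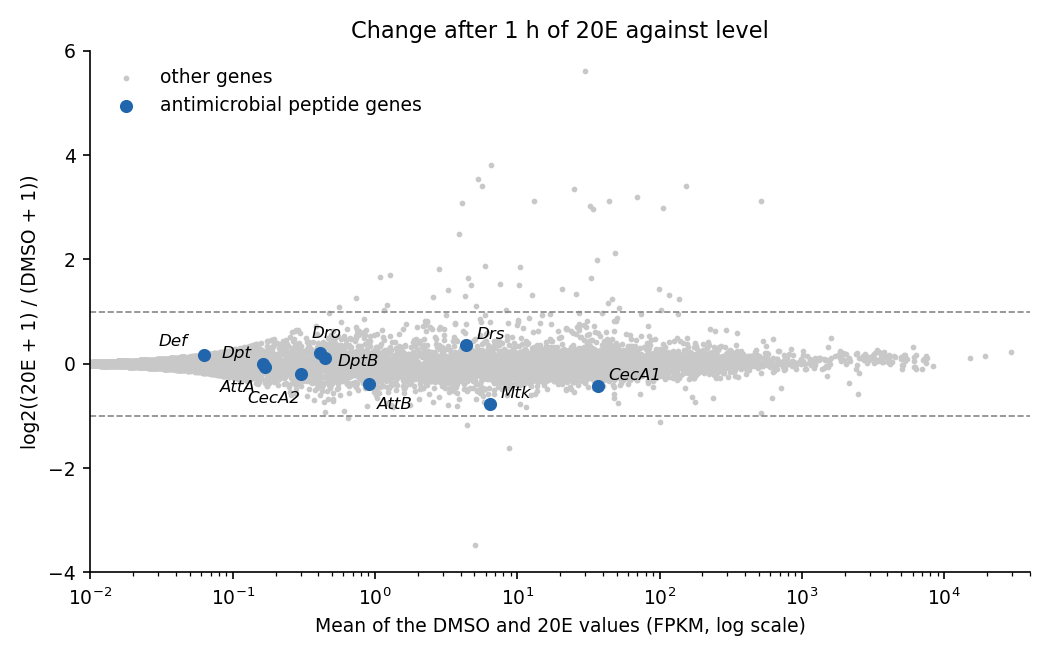
Change after 1 h of 20E, log2((20E + 1) / (DMSO + 1)), against the mean of both FPKM values on a log axis, for the genes with a mean of at least 0.01 FPKM. Grey points are genes of the table, blue points the 10 antimicrobial peptide genes, and dashed lines mark ratios of 2 and 0.5. All blue points lie between the lines, from -0.78 for Mtk to 0.36 for Drs.

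Genes of the ecdysone response itself were higher in 20E. EcR, the ecdysone receptor gene and itself a hormone target, went from 14.3 FPKM (11.1 to 17.5) to 37.4 FPKM (29.1 to 45.7). The early gene br, a zinc-finger factor, went from 6.98 FPKM (5.21 to 8.76) to 61.3 FPKM (46.8 to 75.8). Of 9 ecdysone and GATA regulators, 6 had bounds in 20E wholly above those in DMSO, against 0.430% of all genes. The others were the receptor partner usp and the GATA factors srp and pnr. Like the other lists, this list was chosen with earlier results of these data known. The GATA factor gene srp was listed at 106 FPKM in DMSO (83.2 to 129) and 115 FPKM in 20E (90.5 to 140), with overlapping bounds.

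The signalling genes upstream stood well above most of the peptide genes. Of 20 genes of the Imd pathway, 19 were at 1 FPKM or more in both conditions, with medians of 30.8 FPKM in DMSO and 27.8 FPKM in 20E. The highest was eff, a ubiquitin-conjugating enzyme, at 486 FPKM in DMSO (381 to 592) and 469 FPKM in 20E (369 to 570). The receptor gene PGRP-LC was listed at 30.3 FPKM in DMSO (23.3 to 37.4) and 27.6 FPKM in 20E (21.0 to 34.1). Rel, which encodes Relish, was listed at 136 FPKM in DMSO (104 to 169) and 114 FPKM in 20E (85.7 to 143). The exception was PGRP-LB, an amidase that degrades peptidoglycan, at 0.376 FPKM in DMSO (0 to 0.967) and 0.246 FPKM in 20E (0 to 0.816). None of the 20 genes passed the 2-fold limits in either direction or had bounds apart. Of all genes, 0.295% passed the upper and 0.0321% the lower limit. Bounds lay apart upward for 0.430% and downward for 0.0769% of all genes. The log2 changes of FPKM + 1 of the 20 genes lay between -0.47 and 0.10.

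In the Toll pathway, 15 of 18 genes were at 1 FPKM or more in both conditions, with medians of 18.0 FPKM in DMSO and 16.6 FPKM in 20E. The ligand gene spz was listed at 92.1 FPKM in DMSO (72.4 to 112) and 80.6 FPKM in 20E (63.3 to 97.9). Dif was listed at 20.0 FPKM in DMSO (10.5 to 29.5) and dl, which encodes Dorsal, at 51.3 FPKM (36.2 to 66.3). Below 0.1 FPKM in both conditions were SPE, the protease that cleaves the ligand, the upstream protease gene psh and the serpin gene nec. No gene of the 18 passed the 2-fold limits or had bounds apart, beside the same shares of all genes. The log2 changes of FPKM + 1 of the 18 genes lay between -0.24 and 0.18.

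Other peptides and immune-induced secreted proteins were mostly listed below 1 FPKM. Of 26 listed, 24 were found in the table, and 3 of these were at 1 FPKM or more in DMSO, namely CecB, AttD and TotA. TotA, a stress-induced humoral factor, was listed at 2.58 FPKM in DMSO (0.978 to 4.19) and 2.16 FPKM in 20E (0.706 to 3.61). A value above 0 in at least 1 condition was listed for 13 of the 24, and 11 were at 0 in both, among them TotB, TotX and IM2. The drosomycin-like gene dro2 was listed at 0.638 FPKM in DMSO (0 to 1.81) and 0.889 FPKM in 20E (0 to 2.32). None of the 24 passed the 2-fold limits or had bounds apart, beside the shares of all genes given above. Those listed below 1 FPKM in DMSO, among them the 11 at 0 in both conditions, could not pass the lower limit.

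**Figure D4:**
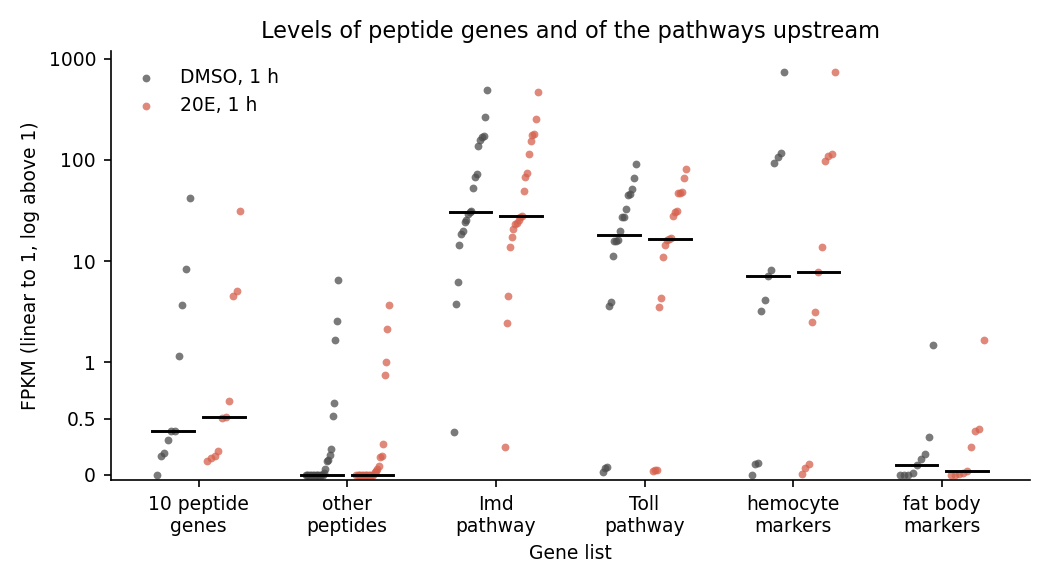
FPKM (vertical axis, linear up to 1 and log above) of each gene of 6 lists in DMSO (grey) and 20E (red). Points are the authors' pooled values, sorted within each list, and black bars the list medians, which were 0.389 and 0.512 FPKM for the 10 peptide genes and 30.8 and 27.8 FPKM for the Imd pathway.

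The blood-cell label was met only in part. Of 11 hemocyte markers, 8 were at 1 FPKM or more in both conditions, with Nplp2 at 741 and 733 FPKM and Pxn, an extracellular-matrix peroxidase, at 93.3 and 96.9 FPKM in DMSO and 20E. The plasmatocyte genes Hml (0.104 and 0.0944 FPKM) and nimC1 (0.0918 and 0.0632 FPKM) were near 0. The phagocytic receptor gene eater went from 8.20 FPKM (6.21 to 10.2) to 13.8 FPKM (10.65 to 16.999). Its bounds lay apart, as for no other of the 11 markers, against 0.430% of all genes with higher bounds in 20E. Of 9 fat body markers, 1 reached 1 FPKM, and they added up to 2.26 FPKM in DMSO and 2.74 FPKM in 20E. The crystal cell genes lz and proPO-A1 and the lamellocyte gene atilla were at or below 0.0165 FPKM, while PO45 was at 4.32 and 4.59 FPKM and the lamellocyte list held 3 of 4 genes above 1 FPKM. In such a sample, fewer cells that express a peptide and less RNA per cell cannot be told apart.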

How the data were processed

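Expression was taken from poly(A) RNA libraries of S2 cells after 1 h with DMSO or 0.3 µM 20E, with 2 libraries per condition by the labels. The ChIP-seq samples were not analysed here. The deposited values are FPKM per gene and per transcript, in 1 column per condition, to which the authors added bounds for genes, and how the libraries entered a column is not stated. The submitters' processing notes name TopHat2 and the builds dm6 and dm3, without their roles. Cuffdiff is the tool whose headings the tables carry. The deposited comparison columns (log2 fold change, test statistic or score, p-value, q-value and call) hold the authors' own comparison and were not used.

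Changes were computed as log2((20E + 1) / (DMSO + 1)), with ratios above 2 or under 0.5 counted, and bounds were compared for overlap. With 1 column per condition no test was run, and depth is unknown. How the fold rule performs at low FPKM, where most of the 10 members lie, was not tested. Members and lists were chosen with earlier results of these data known. Named genes are the 10 members and, of each list, up to 4 examples, those highest in DMSO and those with bounds apart; any other named gene was chosen after its values were seen.

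Lengths, positions and sequences come from BDGP6 (Ensembl 115) and the RefSeq Release 6 genome, matched by transcript identifier, which all 12 transcripts allowed. Deposited positions differ from it for most members and were used only for distances. Software was Biopython 1.88 for global alignment, pandas 2.3.3 and NumPy 2.4.6 for tables and Matplotlib 3.10.9 for plots, under Python 3.11.15.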

Additional observations from a re-analysis of the deposited data

How the results depend on the processing

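No paired analysis was possible because the 2 libraries of a condition share 1 pooled column, and leaving out a replicate could not be run for the same reason. Among the changes of the single genes, none turned its sign under scaling of 20E to the median ratio, whose factor was 1.001. A pseudocount of 0.1, no pseudocount or a mean of at least 1 FPKM cannot turn a sign, whatever the data. Summed transcripts gave the same changes. The kept signs therefore say little about the direction. A pseudocount of 0.1 gave 1 gene more than 2-fold higher, Def, which is listed at 0 in DMSO, in place of 0. A ratio of 1.5 gave 1 gene below the lower limit, Mtk. Bounds at 0.5 of their width left 1 gene with bounds apart, again Def. Its DMSO bounds are both 0, so any narrowing of its 20E bounds around the value parts them. The shares of all genes at these settings are not given here, so these counts are no result about the members. The median change was -0.41 without a pseudocount, over 9 genes, and -0.42 over the 3 genes with a mean of at least 1 FPKM, of which 2 were listed lower in 20E. With limits of 0.1, 5 and 10 FPKM in place of 1, 9, 2 and 1 genes reached the limit in DMSO and 10, 2 and 1 in 20E. Genes within 20% of a member's length had lowest non-zero values that were more than 1.5 times lower for CecA2, Dro and Mtk. The pooled columns hide the spread between libraries, and the members listed under 1 FPKM had lower bounds of 0, AttB in 20E excepted, so for these members a small change or a fall could not be seen.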
